A study of Homo sapiens with 6 samples.

Results

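The genes described here encode the proteins of the cytosolic ribosome. They were taken from the count tables by symbol: RPL or RPS followed by a number and at most one of the letters A, X or L, together with RPLP0, RPLP1, RPLP2 and RPSA. The rule found 83 of the 56638 gene symbols, 49 for the large and 34 for the small subunit. The libraries came from DLD-1, an established human colorectal cancer cell line, at passages given in the labels as 16-19. Total RNA was sequenced from cells transfected with a control siRNA (3 libraries) or with an siRNA against lncSLCC1 (3 libraries), a long non-coding RNA whose symbol in the tables is RP11-400N13.2. Both groups were transfected cells of one line, and the labels give neither the siRNA sequences nor the time after transfection. No label says whether the 3 libraries of a group came from separate cultures, so p-values here reflect only how far these libraries spread, part or all of which may be technical.

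The libraries held 12572277 to 15568075 reads assigned to genes. In CPM, counts scaled to a common library size,, RP11-400N13.2 was 5.197, 9.31 and 9.04 over the 3 controls in order and 1.66, 2.62 and 2.10 over the 3 lncSLCC1 siRNA libraries (log2 fold change -1.88, SE 0.264, edgeR adjusted p = 0.0027). The colorectal epithelial label was matched by its markers: 8 of 11 had a mean of at least 5 CPM, although CDX1, GPA33 and LGALS4 did not, and the list summed to 5224 to 6376 CPM in the control and 5220 to 5487 CPM in the lncSLCC1 siRNA libraries. No fibroblast, leukocyte or endothelial marker reached that level, and each of those lists summed to at most 3.27 CPM in any library, with DCN and PECAM1 at 0 reads. The control libraries were unlike each other. Their chi-square statistic per gene was 15.9 for replicates 1 and 2, 28.0 for 1 and 3 and 5.46 for 2 and 3, against 1.79 to 1.90 between lncSLCC1 siRNA libraries. Control replicate 1 stood farthest out. Fold changes, medians and differences without it are given with the main ones where they differ by over 1.5 times.

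A ribosome joins a small subunit, which decodes the mRNA, to a large subunit, which forms the peptide bonds. Each subunit is built in the nucleolus from ribosomal RNA and one copy of most of its proteins, so the genes for these proteins are expressed together and strongly in dividing cells. Their mRNAs typically begin with a C followed by a run of pyrimidines, the 5′ terminal oligopyrimidine tract, through which the mTOR kinase controls their translation. Many of the genes have numerous processed pseudogenes, copies of the mRNA inserted elsewhere in the genome, and reads from gene and copy cannot always be told apart.

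The pyrimidine tract is a shared feature that the choice of genes did not use. RefSeq start sites on GRCh38.p14 were matched for 64 of the 83 genes. At 42 of the 64 (65.6%) the annotated first base was a C followed by at least 4 further C or T bases on the coding strand, against 4.60% of 15843 protein-coding genes read the same way. The share was 25 of 39 in the large and 17 of 25 in the small subunit. The sequences below run from 10 bases before the annotated start to 20 bases from it, with the tract in capitals. They show the genes that passed the test below and had a matched start, the stalk proteins, a pair of paralogs that differ in the tract, and RPS19 and RPS6, which did not pass the test and are described below for their roles.

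RPL22: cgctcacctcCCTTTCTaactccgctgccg
RPL35: cgcctacttcCTCTTTCCCTCggagcgggc
RPL32: acgacccatcagcccttgcgcgccaccgtc
RPS15: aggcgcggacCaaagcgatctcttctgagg
RPLP0: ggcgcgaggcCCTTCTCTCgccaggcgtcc
RPLP1: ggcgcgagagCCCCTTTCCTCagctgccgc
RPLP2: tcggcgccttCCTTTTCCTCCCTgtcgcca
RPS19: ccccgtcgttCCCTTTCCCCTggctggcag
RPS6: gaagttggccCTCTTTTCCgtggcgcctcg
RPS27: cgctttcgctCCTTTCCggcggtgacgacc
RPS27L: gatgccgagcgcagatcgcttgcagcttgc

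The windows lie at chr1:6199576-6199605 for RPL22 (minus strand), chr9:124861938-124861967 for RPL35 (minus), chr3:12841546-12841575 for RPL32 (minus) and chr19:1438386-1438415 for RPS15 (plus). Those of the stalk genes are chr12:120201092-120201121 for RPLP0 (minus), chr15:69452808-69452837 for RPLP1 (plus) and chr11:809957-809986 for RPLP2 (plus). RPS19 is at chr19:41860245-41860274 (plus), RPS6 at chr9:19380217-19380246 (minus), RPS27 at chr1:153990752-153990781 (plus) and RPS27L at chr15:63157458-63157487 (minus). RPLP2 had the longest tract of those shown, with 13 bases, and RPL35 had 11. RPL32 began on another base and RPS15 had a single C, so neither held a tract at its annotated start. An annotated start is one position, and transcription may begin at others.

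Ribosomal protein genes took 4.81%, 4.06% and 3.57% of gene reads in control replicates 1, 2 and 3 and 3.62%, 3.47% and 3.63% in the lncSLCC1 siRNA libraries. Control replicates 1 and 2 were above every lncSLCC1 siRNA library, and control replicate 3 lay among them. The mean was 4.15% ± 0.626 in the control group and 3.57% ± 0.0924 in the lncSLCC1 siRNA group (SD, n = 3 each), a difference of -0.574 percentage points with an exact two-sided permutation p of 0.3. The smallest p that 3 against 3 libraries allow is 0.1. Without control replicate 1 the difference was -0.241 percentage points. Both subunits were highest in control replicate 1, next in control replicate 2 and lowest in lncSLCC1 siRNA replicate 2: the large subunit ran from 2.89% in control replicate 1 to 2.09% in lncSLCC1 siRNA replicate 2, and the small subunit from 1.93% to 1.37% in the same libraries. In bulk RNA, a lower level per cell and a smaller part of the cells expressing a gene cannot be told apart.

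The large to small subunit ratio of reads was nearly constant. It was 1.496, 1.506 and 1.504 in the control libraries and 1.54, 1.52 and 1.506 in the lncSLCC1 siRNA libraries. No lncSLCC1 siRNA library was below a control library, but on the log2 scale lncSLCC1 siRNA replicate 3 (0.59056) and control replicate 2 (0.59041) were almost level. The mean log2 ratio was 0.587 ± 0.0047 in the control group and 0.607 ± 0.016 in the lncSLCC1 siRNA group (SD, n = 3 each). The difference of 0.020 had an exact two-sided permutation p of 0.1, the smallest this design allows. The whole family thus varied far more between libraries than the balance of the subunits within a library.

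**Figure D1:**
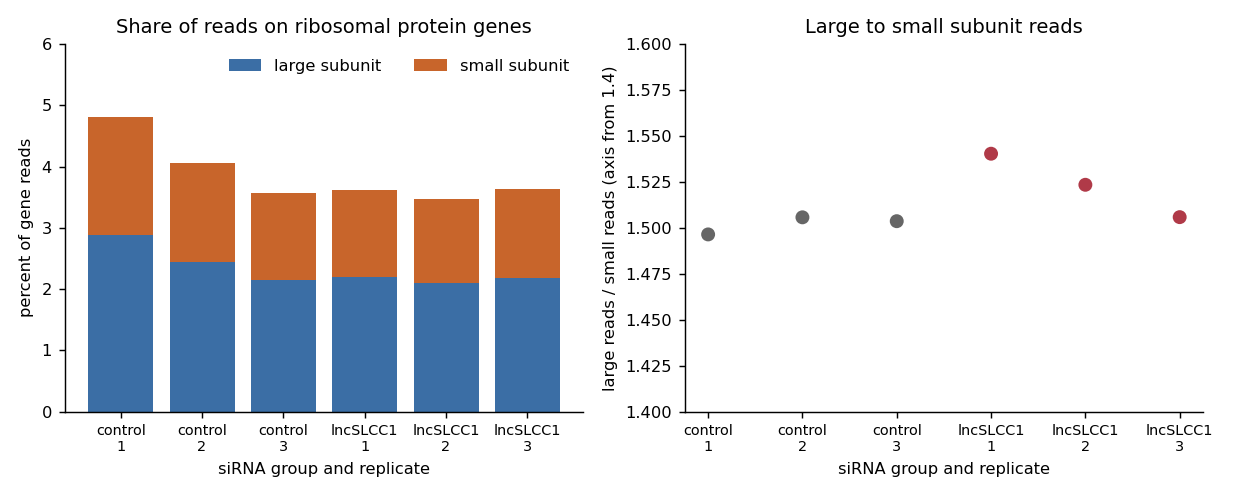
Left, percent of gene reads on large-subunit (blue) and small-subunit (orange) ribosomal protein genes in each of the 6 libraries. Right, the ratio of large- to small-subunit reads in the same libraries, on an axis that starts at 1.4. The share falls from 4.81% in control replicate 1 to 3.57% in control replicate 3, while the ratio stays between 1.496 and 1.54.

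The share moved across the libraries with other properties of the counting. Reads assigned to no feature made up 5.42%, 6.27% and 7.18% of counted reads and alignments in control replicates 1, 2 and 3 and 7.19%, 7.58% and 7.09% in the lncSLCC1 siRNA libraries, lowest where ribosomal protein reads were most abundant. Ambiguous reads made up 10.1%, 9.34% and 8.99% against 8.99%, 8.83% and 8.99%, in the same order as the ribosomal share over the controls. The part these properties play in the ribosomal protein values was not tested.

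Of the 83 genes, 78 passed the filter on low counts and were tested, 47 of the large and 31 of the small subunit. The filter kept genes with enough reads in a group's worth of libraries. With edgeR's quasi-likelihood test and Benjamini-Hochberg adjustment over 15242 genes, 5 fell after lncSLCC1 siRNA: RPL22, RPL32, RPL35, RPS15 and RPS15A. None rose, where 6.46% of all tested genes did, and no gene with a positive value had an unadjusted edgeR p under 0.05. DESeq2 likewise called none higher. The 5 genes are 6.41% of the 78, against 7.39% of all tested genes called lower, so the family was not called more often than genes at large. At an unadjusted p under 0.05, 49 of the 78 passed, where 31.6% of all tested genes did.

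The direction was shared more widely than the calls. The log2 fold change was below 0 for 74 of the 78 genes, against 49.0% of all tested genes, and its median was -0.30 against 0.0072 over all tested genes. The medians of the subunits were -0.29 (large) and -0.32 (small), and -0.17 and -0.19 without control replicate 1. For 43 genes every lncSLCC1 siRNA library was below every control library, 26 of the large and 17 of the small subunit, where 19.6% of all tested genes had that order. No gene had the opposite order, which 19.4% of all tested genes had. The 4 genes with a positive value were RPL36A, RPL13A, RPL3L and RPS23, and none of them passed the test.

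**Figure D2:**
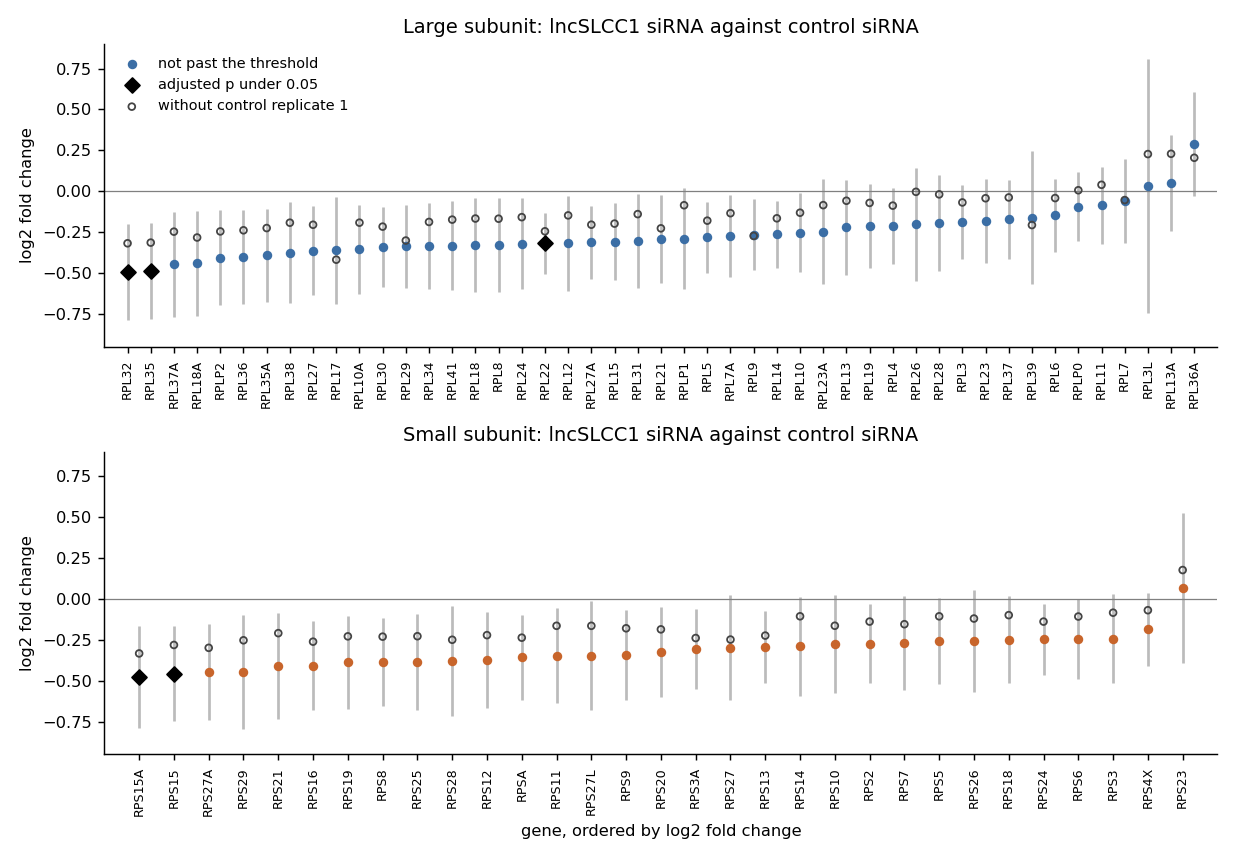
Log2 fold change (lncSLCC1 siRNA against control siRNA, edgeR) of each tested large-subunit (top) and small-subunit (bottom) gene, with 95% confidence intervals as grey lines. Diamonds mark the 5 genes with an adjusted p under 0.05, and open circles give the value without control replicate 1, which lies nearer to 0 for most genes.

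Control replicate 1 was the highest of the 6 libraries for 71 of the 78 genes (91.0%), against 32.9% of all tested genes. Control replicate 2 was highest for 4 genes and a lncSLCC1 siRNA library for 3, against 1474 and 6269 of all 15242 tested genes. The lowest library was lncSLCC1 siRNA replicate 2 for 55 genes, against 2226 of all 15242 tested genes. Relative to each gene's mean over the libraries, the median log2 value of the family was 0.39, 0.099 and -0.10 in control replicates 1, 2 and 3 and -0.14, -0.20 and -0.14 in the lncSLCC1 siRNA libraries. The family was thus at similar levels in control replicate 3 and in the lncSLCC1 siRNA libraries, with most of the spread inside the control group. The median coefficient of variation was 18.4% in the control group and 3.59% in the lncSLCC1 siRNA group, and the control value was the larger for 73 of the 78 genes. Over all tested genes the corresponding medians were 13.6% and 5.92%, and the control value was the larger for 78.7% of them. A wider spread in the control group was thus common to most genes.

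**Figure D3:**
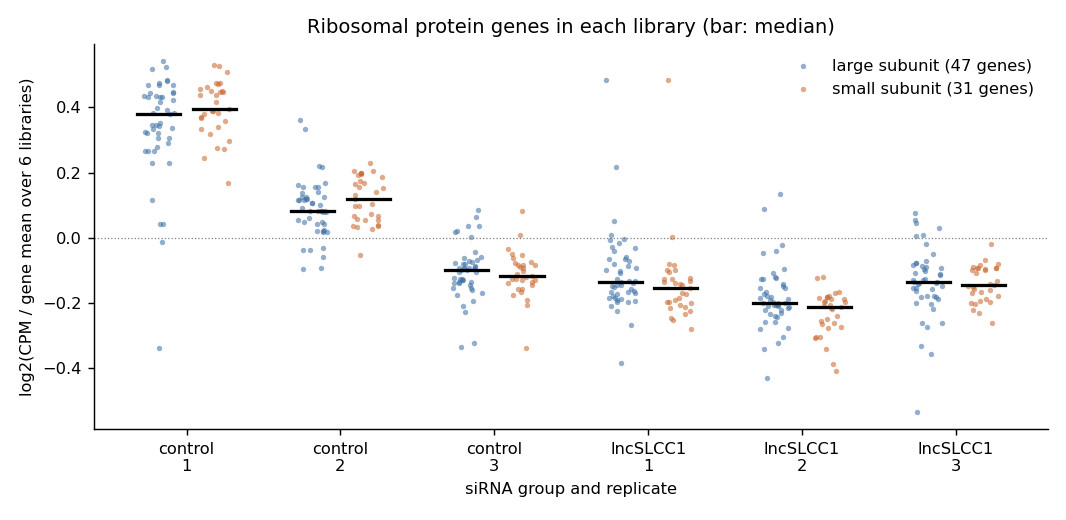
Log2 of each tested gene's CPM over its mean in the 6 libraries, by library, for the large (blue) and small (orange) subunit; bars are medians. Points of control replicate 1 lie highest, with an overall median of 0.39, and those of control replicate 3 overlap the lncSLCC1 siRNA libraries.

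The number of calls depended on which control libraries entered the test. Without control replicate 1, the median log2 fold change was -0.17, yet 39 of the 78 genes were called lower by edgeR, where 15.5% of all tested genes were, and 1 (RPL13A) was called higher, where 13.5% were. Without control replicate 3, 58 were called lower (13.4% of all tested genes) and the median was -0.40. Without control replicate 2, or without any one of the lncSLCC1 siRNA libraries, edgeR called no gene in either direction. At an unadjusted p under 0.05, 37 lower and 1 higher passed without control replicate 2, and 33, 19 and 29, all lower, without lncSLCC1 siRNA replicates 1, 2 and 3. The shares of all tested genes at that unadjusted threshold are not given for those 4 fits. With all 6 libraries that share was 31.6%, so these counts alone do not show an excess. At the adjusted threshold, calls over all tested genes in either direction were also few in those 4 fits, at 3.95%, 3.79%, 3.03% and 2.93%. With limma-voom and a weight for each library, 59 were called, all lower. In that fit 3052 of all 15242 tested genes were called lower, and 39.3% were called in either direction. The weights were 0.171, 2.39 and 0.513 for control replicates 1, 2 and 3 and 1.73, 1.83 and 1.51 for the lncSLCC1 siRNA libraries. Without weights limma-voom called 3 lower (6.87% of all tested genes), and edgeR with library totals in place of TMM sizes also 3 (5.34%). DESeq2 called 13 (8.8%), and edgeR with GC content and length offsets 42 (19.3%). Without the low-count filter edgeR called 49 (5.57%). That share is of 30025 genes, which include genes with very few reads, so it is not comparable with the other shares. With the replicate number as a block the count was 9 (6.95%), and with block and offsets together 44, all lower (28.9% of all tested genes in either direction).

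Within the large subunit, the clearest single differences were in RPL32, RPL35 and RPL22. The CPM of RPL32 was 536, 419 and 353 over control replicates 1 to 3 and 319, 302 and 308 over the lncSLCC1 siRNA libraries. All 3 lncSLCC1 siRNA libraries were below the lowest control. Its log2 fold change was -0.49 (SE 0.131, edgeR adjusted p = 0.036), and -0.32 without control replicate 1.

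RPL35, a protein at the exit of the peptide tunnel, stood at 758, 589 and 504 CPM in the control and 458, 422 and 441 CPM in the lncSLCC1 siRNA libraries. The groups did not overlap, and the drop from control replicate 1 to control replicate 3 was larger than the gap between the groups. Its log2 fold change was -0.49 (SE 0.130, edgeR adjusted p = 0.037), and -0.31 without control replicate 1.

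RPL22 lies on the outside of the large subunit near the tunnel exit and is known as a ribosomal protein that is not essential for translation in every cell. Its values were 342, 305 and 284 CPM in the control and 246, 247 and 254 CPM in the lncSLCC1 siRNA libraries. Its controls were the closest together of the called genes, with a mean of 311 ± 29.6 CPM against 249 ± 4.40 CPM (SD, n = 3 each). The log2 fold change was -0.32 (SE 0.0843, edgeR adjusted p = 0.035), and -0.24 without control replicate 1. With the replicate block the call of RPL22 was lost (edgeR adjusted p = 0.052). Of 9 tested genes of the tunnel exit, 2 (RPL22 and RPL35) fell, and all 9 had a negative value with a median of -0.30. Over all tested genes, 7.39% were called lower and 49.0% had a negative value. Without control replicate 1 the median of the tunnel exit genes was -0.19. Of these genes 44.4% were then called lower, against 15.5% of all tested genes.

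The stalk of the large subunit, made of RPLP0 and copies of RPLP1 and RPLP2, recruits the translation factors that hydrolyse GTP. RPLP2 stood at 1871, 1512 and 1241 CPM in the control and 1194, 1116 and 1177 CPM in the lncSLCC1 siRNA libraries, with no overlap (log2 fold change -0.41, SE 0.130, edgeR adjusted p = 0.063, and -0.25 without control replicate 1). RPLP1 stood at 1062, 744 and 713 CPM against 716, 671 and 674 CPM, where a lncSLCC1 siRNA library lay above the lowest control (log2 fold change -0.29, SE 0.137, edgeR adjusted p = 0.18, and -0.085 without control replicate 1). RPLP0, the base of the stalk, stood at 1026, 854 and 831 CPM against 850, 812 and 879 CPM, so its groups overlapped. The log2 fold change of RPLP0 was -0.093 (SE 0.0934, edgeR adjusted p = 0.53) and 0.0064 without control replicate 1. None of the 3 passed the test.

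RPL5 and RPL11 form a particle with the 5S ribosomal RNA that, when free, can bind the p53 regulator MDM2. RPL5 was 1146, 992 and 879 CPM in the control and 826, 809 and 846 CPM in the lncSLCC1 siRNA libraries, below every control (log2 fold change -0.28, SE 0.0982, edgeR adjusted p = 0.082, and -0.18 without control replicate 1). RPL11 was 1080, 880 and 816 CPM against 859, 842 and 917 CPM, with overlapping groups (log2 fold change -0.085, SE 0.106, edgeR adjusted p = 0.62, and 0.040 without control replicate 1). Neither passed the test, and the difference between the partners was not tested.

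RPL3, which lies next to the peptidyl transferase centre, and RPL10, which is added late in subunit maturation, gave log2 fold changes of -0.19 and -0.25 with edgeR adjusted p of 0.24 and 0.14. Without control replicate 1 they were -0.068 and -0.13. RPL36A had the most positive value of the family. It stood at only 7.40, 9.89 and 8.003 CPM in the control and 10.9, 10.3 and 9.74 CPM in the lncSLCC1 siRNA libraries, or 104 to 164 reads, and lncSLCC1 siRNA replicate 3 was below control replicate 2. Its log2 fold change of 0.29 (SE 0.143, edgeR adjusted p = 0.19) had a 95% confidence interval from -0.030 to 0.61. RPL13A, best known outside the ribosome for a role in the translational control of inflammatory mRNAs, stood at 379, 292 and 249 CPM against 324, 308 and 322 CPM, with the lncSLCC1 siRNA libraries inside the control range. Its log2 fold change was 0.051 (SE 0.131, edgeR adjusted p = 0.82), and 0.23 without control replicate 1 (edgeR adjusted p = 0.0064).

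In the small subunit, RPS15 and RPS15A fell. RPS15, a protein of the head near the tRNA sites, stood at 297, 229 and 198 CPM in the control and 176, 169 and 183 CPM in the lncSLCC1 siRNA libraries, with no overlap (log2 fold change -0.46, SE 0.131, edgeR adjusted p = 0.046). RPS15A, in the body of the subunit, stood at 52.7, 43.7 and 36.0 CPM against 32.5, 28.99 and 33.7 CPM, again with no overlap (log2 fold change -0.48, SE 0.140, edgeR adjusted p = 0.049). Without control replicate 1 the log2 fold changes were -0.28 and -0.33. Both calls were lost with library totals (edgeR adjusted p = 0.065 for RPS15 and 0.071 for RPS15A) and with limma-voom (limma adjusted p = 0.056 and 0.058). That of RPS15A was also lost with a filter at a mean CPM of 1 (edgeR adjusted p = 0.051). RPS27A, made as a fusion with ubiquitin, was just outside the threshold: 190, 161 and 125 CPM against 113, 119 and 117 CPM gave a log2 fold change of -0.45 and an edgeR adjusted p of 0.051, with -0.30 without control replicate 1.

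Proteins of the head and of the body of the small subunit showed similar values. Of 13 tested head genes, 1 fell and all 13 had negative log2 fold changes with a median of -0.38 (-0.23 without control replicate 1). Of 17 body genes, 1 fell, 16 had negative values and the median was -0.29 (-0.16 without control replicate 1). With all libraries in the fit, both shares called were near the 7.39% of all tested genes called lower. They became 61.5% for the head and 52.9% for the body without control replicate 1, against 15.5% of all tested genes. The difference between head and body was not tested.

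RPS6, a target of the S6 kinases downstream of mTOR, stood at 1900.3, 1521 and 1398 CPM in the control and 1361, 1308 and 1401 CPM in the lncSLCC1 siRNA libraries, and the highest lncSLCC1 siRNA library was just above the lowest control (log2 fold change -0.24, SE 0.111, edgeR adjusted p = 0.16, and -0.11 without control replicate 1). RPS19, the gene most often mutated in Diamond-Blackfan anaemia, stood at 955, 774 and 638 CPM against 607, 583 and 620 CPM, with no overlap (log2 fold change -0.39, SE 0.127, edgeR adjusted p = 0.069, and -0.23 without control replicate 1). RPSA, which is also described as a laminin receptor, gave -0.36 (edgeR adjusted p = 0.067, and -0.24 without control replicate 1). RPS4X, the X-linked form of its protein, gave -0.18 (edgeR adjusted p = 0.24, and -0.069 without control replicate 1).

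RPS23, at the decoding centre, had the only positive value of the small subunit, and a single library carried it. It stood at 56.7, 51.4 and 39.9 CPM in the control libraries and at 70.6, 40.9 and 43.2 CPM in the lncSLCC1 siRNA libraries. The log2 fold change was 0.065 (SE 0.205, edgeR adjusted p = 0.86), -0.23 without lncSLCC1 siRNA replicate 1, and 0.18 without control replicate 1.

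**Figure D4:**
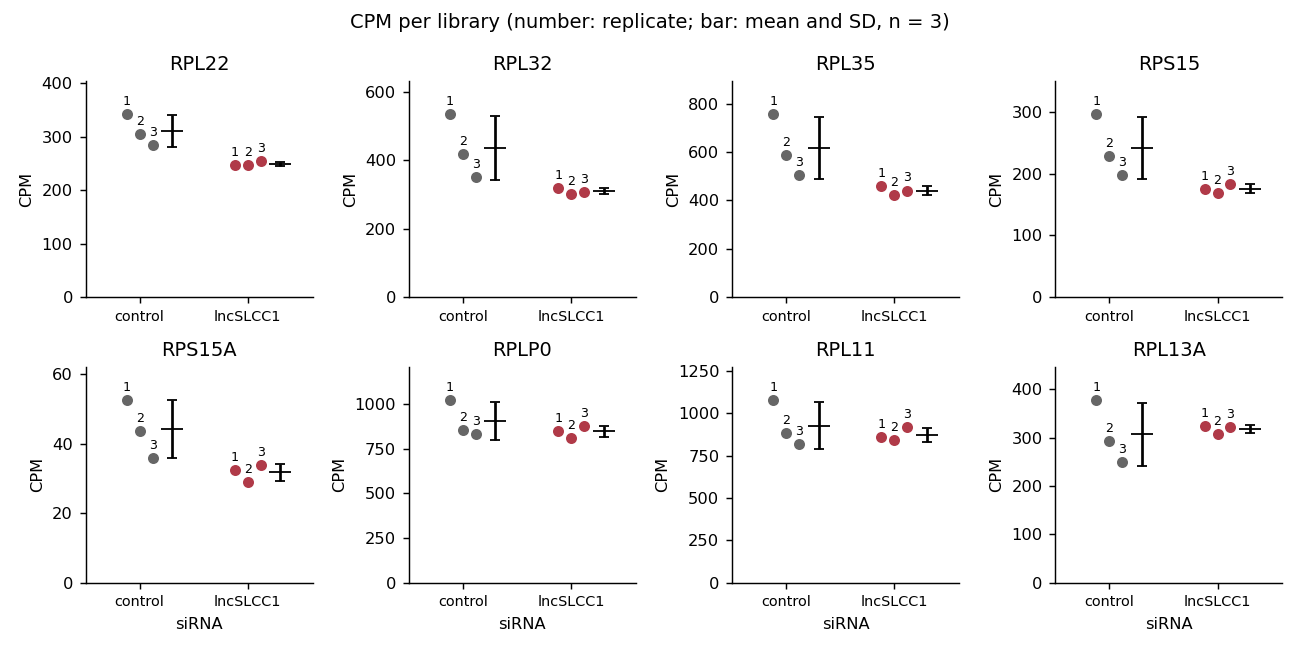
CPM in each library (numbers are replicates) with the mean and SD (n = 3) of each group, for the 5 genes called lower and for RPLP0, RPL11 and RPL13A, which were not called. Replicate 1 is the highest control in every panel, and in the panels of the called genes the groups do not overlap.

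Genes for tissue-restricted or duplicate forms were low or without reads. RPL10L, a testis-expressed copy of RPL10, and RPL39L had 0 reads in all libraries. RPS10L, which RefSeq and GENCODE name RPS10P5, a pseudogene, had 3 to 8 reads. RPL3L, a form of RPL3 typical of skeletal and heart muscle, was tested with 8 to 19 reads per library, a mean of 0.900 ± 0.217 CPM in the control and 0.905 ± 0.326 CPM in the lncSLCC1 siRNA group (SD, n = 3 each). Its log2 fold change was 0.033, and 0.23 without control replicate 1.

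RPS27L, a p53-induced paralog of RPS27, shared none of its 50-base words with another gene, whereas RPS27 shared all of them. RPS27L stood at 40.4, 30.5 and 26.8 CPM in the control and 24.4, 25.2 and 27.2 CPM in the lncSLCC1 siRNA libraries (log2 fold change -0.35, SE 0.148, edgeR adjusted p = 0.14, and -0.16 without control replicate 1). RPS27 stood at 14.4, 13.9 and 11.8 CPM against 12.2, 9.13 and 11.4 CPM (log2 fold change -0.30, SE 0.144, edgeR adjusted p = 0.18). The counts listed the paralog above RPS27 in every library. The shared words of RPS27 may affect this comparison, which was not tested.

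The level of a gene in these tables followed how much of its sequence it shared with other genes. Scaled by coding length, the highest mean levels were those of RPLP2 (3919 CPM per kb), RPL8 (3069) and RPL41 (2698) in the large subunit and of RPS24 (2296), RPS3 (2085) and RPS14 (2044) in the small subunit. The lowest were RPL3L (0.739), RPL17 (17.5) and RPL7 (26.8), and RPS10 (23.2), RPS3A (28.7) and RPS27 (48.2). Apart from RPL3L, these low genes shared 99.7% to 100% of their 50-base words with another gene. Only coding bases enter this scaling, which raises genes with a very short coding sequence. RPL41 has 75 coding bases, and its mean of 202 CPM was below the median of 409 CPM over the 78 tested genes. The 20 genes with under 20% of words shared had a median level of 1975 CPM per kb, the 36 genes with 20% to 80% had 972, and the 22 genes above 80% had 59.3. Across the 78 genes, Spearman's rho between the share of words and the level per kb was -0.70. This is a description over genes of the same libraries, which are not independent replicates.

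**Figure D5:**
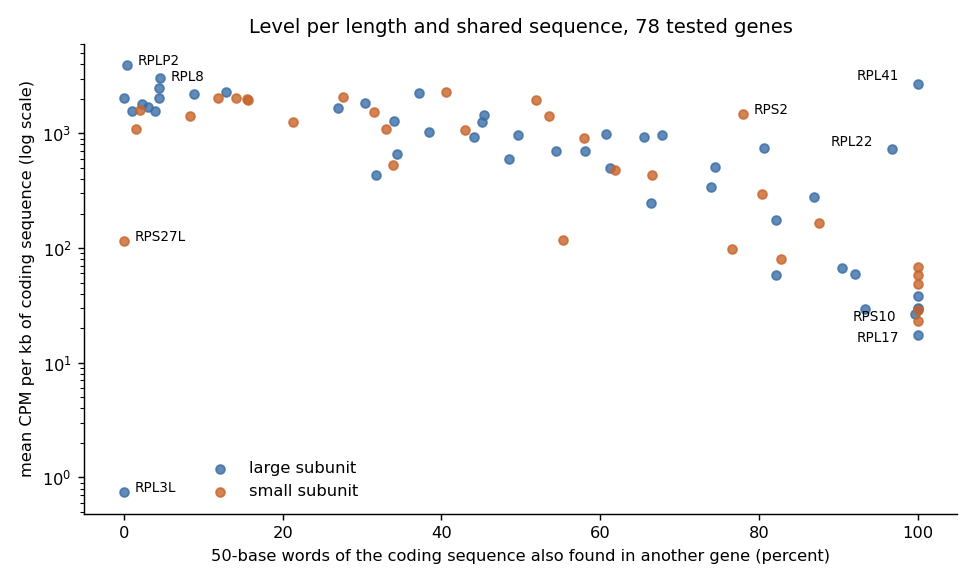
Mean level in CPM per kb of coding sequence (log axis) against the percent of a gene's 50-base coding words also found in another gene, for the 78 tested genes, coloured by subunit. Levels are mostly above 1000 CPM per kb at the left and below 100 at the right. RPL3L and RPS27L are low despite unshared sequence. RPL22 and RPL41 are high despite shared sequence, RPL41 with a coding length of only 75 bases.

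The tables list 857 symbols of ribosomal protein pseudogenes, which together held 26.4% to 27.2% of the reads on ribosomal protein genes and their pseudogenes in each library. RPL13AP5 had a mean of 1294 CPM over the 6 libraries, where RPL13A itself had a mean of 307 CPM in the control and 318 CPM in the lncSLCC1 siRNA group. RPLP0P6 had 1150 CPM, RPL7AP6 1037 CPM, and RPS2P5 1031 CPM. RPL7 had group means of 20.4 and 19.6 CPM, against 1014 CPM on its pseudogene symbols over the 6 libraries. RPSA had 163 and 127.5 CPM, against 945 CPM. For both genes the pseudogene symbols thus held most of the reads. How many of these reads came from the genes themselves is not known.

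Adding each gene's pseudogene reads to it left the median log2 fold change at -0.30 and gave 7 genes called lower, the 5 above with RPL12 and RPS27A, where 7.49% of all tested genes were called lower. RPL12 gained 38052 reads over the 6 libraries, and its edgeR adjusted p went from 0.13 to 0.047. RPS27A gained only 10 reads beside its own 12151. Its fold change stayed at -0.45 and its edgeR adjusted p went from 0.0506 to 0.0497, barely across the threshold. RPL13A then changed from 0.051 to -0.13 and RPS23 from 0.065 to -0.30, neither past the threshold (edgeR adjusted p = 0.50 and 0.16). RPL36A stayed positive at 0.27. The share of words had little relation with the fold change (rho 0.16 over the 78 genes, a description).

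Fold changes with and without a pyrimidine tract were similar. The 42 tested genes with a tract had 2 called lower and a median of -0.31. The 21 tested genes with a matched start and no tract had 2 called lower and a median of -0.27. These are 4.76% and 9.52%, near the 7.39% of all tested genes called lower. Without control replicate 1 the medians were -0.18 and -0.16. The shares called lower were then 52.4% and 42.9%, against 15.5% of all tested genes. The difference between the sets was not tested.

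Of ribosomal proteins with other symbols, FAU, made as a fusion with a ubiquitin-like protein, gave a log2 fold change of -0.30 (edgeR adjusted p = 0.15, and -0.13 without control replicate 1), and GNB2L1, which encodes the scaffold RACK1 on the small subunit, gave -0.28 (edgeR adjusted p = 0.13, and -0.13 without control replicate 1). Neither passed the test. The paralogs were more mixed. Among those whose names end in L or L1 and lie outside the rule, RPL36AL was at -0.40 (edgeR adjusted p = 0.067) and RPL26L1 at 0.43 (0.089 by the same test), with RPL22L1 and RPL7L1 at 0.0071 and 0.019 (-0.052 and 0.028 without control replicate 1). RPL36AL stood at 264, 202 and 175 CPM in the control and 164, 160 and 161 CPM in the lncSLCC1 siRNA libraries, with a log2 fold change of -0.22 without control replicate 1, while its sister gene RPL36A had the positive value above at far fewer reads.

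The mitochondrial ribosomal proteins, which serve the separate ribosome of that organelle, were also mostly at negative values. Of 74 tested, 5 fell and none rose, or 6.76% called lower against 7.39% of all tested genes. Leaving out control replicate 1 gave 18 lower (24.3%) and 2 higher. The shares of all tested genes were then 15.5% lower and 13.5% higher. A negative value was seen for 63 (85.1%, against 49.0% of all tested genes), and the median was -0.21. MRPL37 (log2 fold change -0.62, edgeR adjusted p = 0.0076), MRPL17 (-0.54, edgeR adjusted p = 0.016) and MRPS17 (-0.50, edgeR adjusted p = 0.031) were lowest, and MRPL41 and MRPS2 were the others that fell. The ratio of cytosolic to mitochondrial ribosomal protein reads was 8.74, 7.99 and 7.72 in control replicates 1, 2 and 3 and 7.72, 7.66 and 7.72 in the lncSLCC1 siRNA libraries. It was high in control replicates 1 and 2, and the remaining 4 libraries lay between 7.66 and 7.72. The difference in mean log2 ratio was -0.079 with an exact two-sided permutation p of 0.3, and -0.028 without control replicate 1.

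Other mRNAs that carry a terminal oligopyrimidine tract, such as those of translation factors, had a median nearer to 0. Of 25 tested, 2 fell and 2 rose, and the median was -0.080. These shares of 8.0% each are near the 7.39% lower and 6.46% higher of all tested genes. Leaving out control replicate 1 gave 6 lower and 2 higher, where 15.5% and 13.5% of all tested genes were called. SNHG1, a host of small nucleolar RNAs, fell from 255, 260 and 240 CPM to 196, 191 and 192 CPM (log2 fold change -0.38, edgeR adjusted p = 0.0092), and EEF1D, a subunit of the elongation factor that recharges EEF1A, fell by 0.31 on the log2 scale (edgeR adjusted p = 0.034). EIF3F, a subunit of an initiation factor, rose from 113, 102 and 92.3 CPM to 142, 131 and 133 CPM (0.40, edgeR adjusted p = 0.021). With GC content and length offsets its value was 0.20 and the call was lost (edgeR adjusted p = 0.36). The calls of SNHG1, EEF1D and EIF3F, like those of MRPL17 and MRPS17, were lost without control replicate 2 or any one lncSLCC1 siRNA library, and that of MRPL37 without lncSLCC1 siRNA replicate 2. The call of EEF1D was also lost with the replicate block (edgeR adjusted p = 0.053). The other gene that rose was CCNI, which encodes a cyclin.

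Factors that assemble ribosomes were called lower in a larger share than the ribosomal proteins with edgeR over the 6 libraries, but the order depended on the fit and the difference was not tested. Of 59 tested, 23 fell and 1 rose, 39.0% called lower against 6.41% of the ribosomal protein genes and 7.39% of all tested genes, with a median of -0.21. Without control replicate 1 57.6% of these factors and 39 of the 78 ribosomal protein genes were called lower. With library weights the order turned, at 59.3% of the factors and 75.6% of the ribosomal protein genes. In that fit 3052 of all 15242 tested genes were called lower. EBNA1BP2, a nucleolar factor for the large subunit, fell from 231, 184 and 164 CPM to 87.8, 85.3 and 86.2 CPM (log2 fold change -1.16, SE 0.119, edgeR adjusted p = 4.9e-04). RRP9, a protein of the U3 small nucleolar particle, fell by 0.84 on the log2 scale (edgeR adjusted p = 0.0016). NOLC1, a nucleolar phosphoprotein, rose from 297, 283 and 289 CPM to 593, 607 and 590.1 CPM (1.04, SE 0.0692, edgeR adjusted p = 8.1e-05). For these factors the 3 controls were closer together, and their median log2 value relative to each gene's mean was 0.15, 0.12 and 0.084 in control replicates 1, 2 and 3 and -0.11, -0.12 and -0.10 in the lncSLCC1 siRNA libraries.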

How the data were processed

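The authors deposited raw read counts per gene symbol, one table for each of the 6 libraries. TopHat2 2.0.11 and HTSeq are named with the builds hg19 and GRCh37 per the submitters' processing notes. For annotation release and strand the setting is not given in the sources used here, and reads of overlapping or antisense genes cannot be told apart. Groups and replicate numbers came from the sample titles. HTSeq's summary lines, among them 12.8% to 13.8% of reads and alignments that did not align uniquely, stayed out of library sizes and tests. Reads from near-identical copies are thus only partly counted, and ribosomal protein levels are uncertain where copies exist.

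The main test was edgeR 4.0.16 (R 4.3.3), quasi-likelihood, TMM sizes, the default low-count filter (10) and Benjamini-Hochberg adjustment over 15242 genes, threshold 0.05. The biological coefficient of variation was 10.9%. CPM used TMM sizes. Standard errors were the fold change divided by the root of its F statistic. On simulated counts for this comparison over 15242 genes, the test recovered 81% of 100 genes changed 1.5-fold and 99% of 100 changed 2-fold, with 20 false calls. Changes were planted only in genes with a mean of at least 20 CPM. Genes were drawn independently, with the same dispersion in both groups. The real control libraries spread more than the lncSLCC1 siRNA libraries, so recovery and false calls in the real data may differ. Recovery at smaller effects, such as the ribosomal protein median log2 fold change of -0.30, was not tested. The figures thus do not give the recovery for that family. Single values per library were compared with exact two-sided permutation tests over 20 splits. Alternatives were limma 3.58.1 (voom, with and without library weights), DESeq2 1.42.0, other scalings and filters, GC content and length offsets, the replicate block and each library left out.

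Coding length and 50-base words came from GENCODE 29, matched by symbol. Start sites came from RefSeq, GRCh38.p14, a build other than that of the counts. Members, lists and alternatives were chosen with earlier results of these data known. Named were called members, the 3 highest and 3 lowest levels per kb and the 2 most negative and 2 most positive fold changes in each subunit, members fixed by role, paralogs, members not tested, and the leading genes of the compared lists. RPL12, MRPL41, MRPS2 and CCNI were named after their values were seen. A few of the genes so selected are not reported here.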

Additional observations from a re-analysis of the deposited data

How the results depend on the processing

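The 5 genes called lower became 13 with DESeq2, 49 with no low-count filter, 42 with GC content and length offsets, 59 with weighted limma-voom, and 3 with limma-voom or with library totals. Leaving out 1 library gave 0 to 58 lower and 0 to 1 higher, a median log2 fold change of -0.40 to -0.17, a log2 large to small ratio difference of 0.012 to 0.029, a share difference of -0.86 to -0.24 percentage points, a cytosolic to mitochondrial log2 difference of -0.12 to -0.028, and -2.10 to -1.73 for RP11-400N13.2. The log2 large to small difference of 0.020 became 0.043 with pseudogene reads, 0.047 by the median of gene log2 CPM and 0.046 without the 3 genes with most reads in each subunit. The exact permutation p was 0.1, 0.7 and 0.1 in that order, so the groups overlapped by the median. The cytosolic to mitochondrial difference became -0.18 by the median of gene log2 CPM and -0.083 without the 3 genes with most reads, each with an exact permutation p of 0.1. Adding pseudogene reads to each gene was chosen after seeing the data. The counts showed no sign that replicate numbers pair the samples: deviations of same-numbered libraries correlated at 0.094, 0.0014 and -0.016. So few libraries per group cannot exclude a pairing. Not every library correlated best with its own number. With the replicate block alone, 9 genes were lower, and 44 with GC content and length offsets as well, while permutation p-values within pairs were 0.5 for the share, 0.25 for the subunit ratio and 0.5 for the cytosolic to mitochondrial ratio.

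Single genes near 0 changed sign with no adjusted p under 0.05 where the sign had changed, and the cause was not tested. With GC content and length offsets, RPL11 was 0.015, RPL22L1 -0.031 and RPL7L1 -0.043; with the replicate block added, 0.018, -0.029 and -0.042, and RPS23 -0.016. RPL22L1 was -0.11 with library weights, and RPL7 0.012 with library totals. With pseudogene reads, RPL13A was -0.13 and RPS23 -0.30. Leaving out each library in turn, values ran from -0.17 to 0.040 for RPL11, -0.15 to 0.0064 for RPLP0, -0.082 to 0.23 for RPL13A, -0.052 to 0.092 for RPL22L1, -0.28 to 0.23 for RPL3L, -0.12 to 0.00057 for RPL7, -0.0090 to 0.035 for RPL7L1 and -0.23 to 0.21 for RPS23. Depth limited RPL3L and RPS10L, which had at most 19 reads.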
